A study of Mus musculus with 28 samples.

Results

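Eph receptors and their ephrin ligands were followed in mouse colon organoids in which Cre recombination switched on combinations of cancer alleles. The 9 genes described are 5 receptors (Epha1, Epha2, Ephb2, Ephb3 and Ephb4) and 4 ligands (Efna1, Efna4, Efnb1 and Efnb2), chosen by name as the EphB receptors and ephrins that place cells along the crypt together with relatives and with Epha2, a receptor tied to ERK signalling. Earlier results of these data were known when they were chosen. All 9 were among the 13519 genes with deposited counts. A further 6 of the other 13 genes of the family were counted as well and are given at the end.

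The organoids had 4 genotypes. In AC, Apc was floxed on both copies and combined with Villin::CreER T2. PAC organoids carried Trp53 LSL-R172H on 1 copy in addition, BAC organoids Braf floxV600E on 1 copy, and in BPAC all of these alleles were present. Each culture was exposed to 4-HT (3.5 µM for 24 hours), which activates the CreER T2 fusion, or to the solvent EtOH, and RNA was isolated 3 days later. Each control thus carried the alleles of its own genotype before recombination. All groups therefore share the floxed Apc, the Villin promoter restricts Cre to epithelial cells, and the organoids grew in medium that already held Wnt3a, R-spondin and a GSK3 inhibitor. The labels name 7 donor mice of unstated age, 1 for AC and 2 for each of the other genotypes, with 2 cultures per donor called duplicates 1 and 2. The 28 samples thus make 2 samples of AC under either treatment and 4 of every other genotype, and the methods describe the duplicates as organoids of different passages. Cultures of 1 donor are not separate animals, so p-values measure the spread between cultures and donors together.

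Eph receptors are receptor tyrosine kinases that bind ephrins on the membrane of a neighbouring cell, and both partners signal upon contact. In the intestine, WNT signalling keeps EphB2 and EphB3 high at the crypt base, where stem cells lie, while ephrin-B1 and ephrin-B2 rise towards the differentiated cells. Repulsion between receptors and ligands keeps the compartments apart. EphA2 is known as a transcriptional target of the ERK pathway, and EphA receptors mostly bind the lipid-anchored ephrin-A ligands, whereas EphB receptors mostly bind the transmembrane ephrin-B ligands.

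The samples held 20577276 to 40068718 counted reads. Colon epithelial markers were high in every sample (the sum of the 9 of 9 markers counted was 15987 to 28660 CPM), with Epcam at 1512 CPM or more. Markers of other cell types were low: the 2 of 6 endothelial markers counted summed to 1.03 to 6.13 CPM, the 1 of 7 fibroblast markers (Pdgfrb) reached 0.238 to 13.7 CPM and was 3.38 to 13.7 CPM with EtOH against 0.238 to 3.83 CPM with 4-HT, and the 3 of 6 immune markers summed to 2.58 to 7.08 CPM. The defining markers Cdh5, Col1a1 and Ptprc were not among the genes counted. Reads counted on the whole Apc gene went from 27.9 to 49.7 CPM with EtOH to 51.4 to 73.8 CPM with 4-HT in all 4 genotypes, a count that also covers exons outside the deleted one. A pair of PAC libraries stood apart, the 4-HT libraries of duplicate 1 of donors 1 and 2. Both held Xist (25.2 and 22.0 CPM) together with the Y-linked Ddx3y (13.8 and 13.0 CPM), although the other 3 libraries of PAC donor 1 had Ddx3y with almost no Xist (0.251 CPM or less) and the other 3 of donor 2 had Xist and no Ddx3y reads. They were also the closest pair of libraries within any group (mean chi-square of 2.38 per gene, against 8.53 for the next pair), which is more than sampling noise but does not show that they are separate replicates. Whether they hold RNA of both donors was not tested. They were counted as 2 samples, so p-values in PAC treat them as separate, and with their counts summed to 1 sample 3 members passed in PAC. Member calls in PAC and calls on the 4-HT level are given with and without them.

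CPM is the count of a gene relative to the TMM-scaled size of its library, and only CPM per kb of merged exon length compares levels between genes. For the receptors, Ephb2 (ENSMUSG00000028664; chromosome 4, 136647539 to 136835988, minus strand), Ephb3 (ENSMUSG00000005958; chromosome 16, 21204755 to 21223305, plus strand) and Ephb4 (ENSMUSG00000029710; chromosome 5, 137350109 to 137378669, plus strand) are the EphB members. The EphA members are Epha1 (ENSMUSG00000029859; chromosome 6, 42358487 to 42373268, minus strand) and Epha2 (ENSMUSG00000006445; chromosome 4, 141301240 to 141329384, plus strand). The ligands are Efnb1 (ENSMUSG00000031217; chromosome X, 99136130 to 99148991, plus strand), Efnb2 (ENSMUSG00000001300; chromosome 8, 8617434 to 8661242, minus strand), Efna1 (ENSMUSG00000027954; chromosome 3, 89271733 to 89281142, minus strand) and Efna4 (ENSMUSG00000028040; chromosome 3, 89333390 to 89338028, minus strand), the last pair lying side by side with Efna3 on the same chromosome. Positions are those of GRCm38, and all 9 genes are annotated as protein coding. The strand setting of the counting is not given in the sources used here, so reads in 236 exon bases that Epha1 shares with the opposite-strand gene Zyx (median 176 CPM), and in 33 bases that Ephb4 shares with Zan (median 4.62 CPM), cannot be told apart by gene. An uncounted gene overlaps 168 bases of Efna4.

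The RefSeq promoter windows (GRCm38.p6) matched all 9 genes, and the 250 bases before the RefSeq start site are shown for Ephb3 and Ephb2, the crypt base receptors, for Efnb2, the ligand that fell most in BAC and BPAC, and for Epha2, the receptor tied to ERK. They lie at chr16:21204545-21204794 (plus strand), chr4:136836013-136836262 (minus strand), chr8:8661243-8661492 (minus strand) and chr4:141300971-141301220 (plus strand). RefSeq start sites can differ from the gene positions above, and the end of the Ephb3 window lies inside the gene as placed there. Each is written 5′ to 3′ on the strand of the gene, and capitals mark matches on either strand to the letters CTTTGA (the TCF/LEF core), TGANTCA (AP-1), TGACGTCA (the cAMP response element) or CCGGAA (ETS).
Ephb3: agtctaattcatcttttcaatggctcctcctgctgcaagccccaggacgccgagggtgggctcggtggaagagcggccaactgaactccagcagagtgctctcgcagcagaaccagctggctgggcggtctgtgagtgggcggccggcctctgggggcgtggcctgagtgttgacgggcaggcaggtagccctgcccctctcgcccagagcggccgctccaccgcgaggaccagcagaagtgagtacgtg
Ephb2: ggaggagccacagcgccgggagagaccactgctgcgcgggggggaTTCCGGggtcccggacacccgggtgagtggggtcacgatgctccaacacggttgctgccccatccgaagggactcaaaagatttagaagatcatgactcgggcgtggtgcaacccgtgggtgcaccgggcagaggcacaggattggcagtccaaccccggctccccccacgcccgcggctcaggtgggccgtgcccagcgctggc
Efnb2: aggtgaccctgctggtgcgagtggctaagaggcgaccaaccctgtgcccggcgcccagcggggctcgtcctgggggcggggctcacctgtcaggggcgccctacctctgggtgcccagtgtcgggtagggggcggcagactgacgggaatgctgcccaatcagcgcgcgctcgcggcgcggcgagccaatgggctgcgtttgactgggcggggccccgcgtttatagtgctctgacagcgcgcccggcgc
Epha2: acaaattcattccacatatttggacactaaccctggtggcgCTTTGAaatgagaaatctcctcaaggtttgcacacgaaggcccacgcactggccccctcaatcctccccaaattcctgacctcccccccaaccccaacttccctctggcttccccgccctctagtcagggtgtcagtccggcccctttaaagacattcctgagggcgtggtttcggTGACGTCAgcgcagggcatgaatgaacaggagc
Over all 32851 RefSeq windows of this length, 13.8% held the TCF/LEF core, 6.75% AP-1, 1.55% the cAMP response element, and 3952 windows held the ETS letters. The Epha2 window held the TCF/LEF core, 209 to 204 bases before the start, and the cAMP response element, 33 to 26 bases before it. Ephb2 held the ETS letters on the opposite strand, 205 to 200 bases before the start. None of these letters was found in the windows of the other 7 genes, Efna1 with 2 start sites included. The Efnb2 window had a GC content of 72.0% and the Epha1 window 54.4%, against a median of 52.4% over all windows.

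In organoids given EtOH, Efna1 and both ephrin-B ligands were more abundant per kb than Ephb2 and Ephb3. Efnb1 had the highest mean level of the family, 54.7 ± 4.41 CPM per kb (SD, n = 14), followed by Efna1 at 42.5 ± 9.95. Ephb4 at 28.3 ± 3.37, Efnb2 at 23.6 ± 3.59 and Epha2 at 21.3 ± 2.81 CPM per kb came next. The sample ranges of each of these genes overlapped with that of its neighbour in the order, and the first gap lay below Epha2. Epha1 followed at 11.5 ± 1.59, Efna4 at 7.39 ± 2.12, Ephb3 at 7.16 ± 1.60 and Ephb2 at 6.33 ± 0.778 CPM per kb, again with overlapping neighbours. With 4-HT the order changed. Ephb4 stood first at 40.3 ± 5.07, ahead of Efnb1 at 30.1 ± 3.99, Efna1 at 28.01 ± 6.58 and Epha2 at 23.5 ± 1.85 CPM per kb. Ephb3 reached 23.2 ± 4.01 CPM per kb and thus the fifth place, above Efna4 at 13.2 ± 5.19, Efnb2 at 11.5 ± 3.45, Ephb2 at 9.69 ± 1.43 and Epha1 at 8.51 ± 0.582, and the ranges of all neighbours among these 9 genes overlapped.

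**Figure D1:**
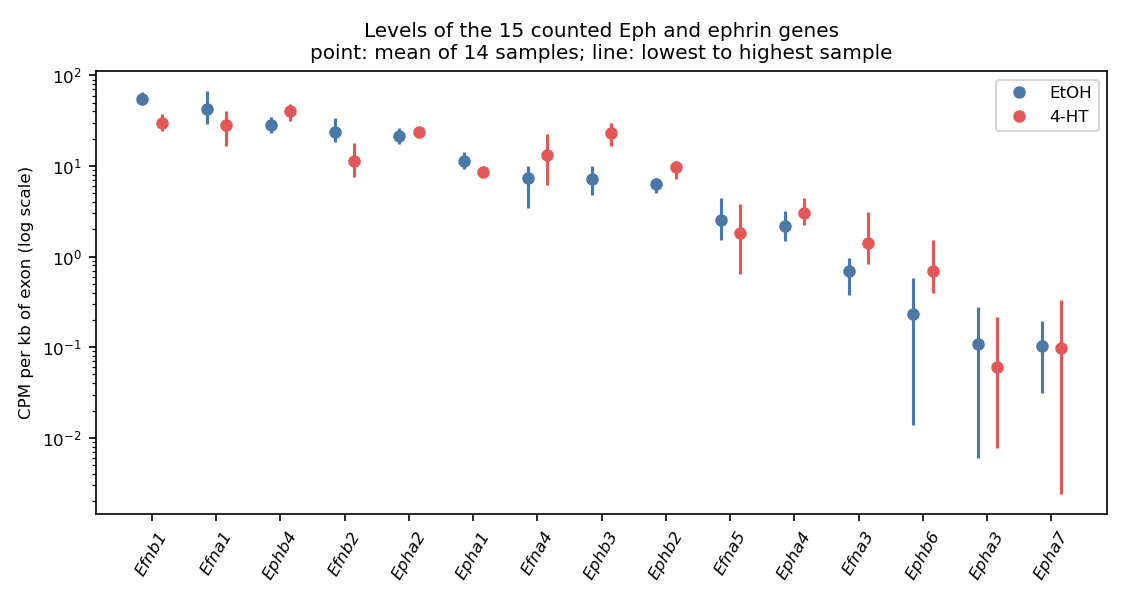
Mean level (points) and lowest to highest sample (lines) of the 15 counted Eph and ephrin genes in CPM per kb of exon on a log axis, over 14 EtOH (blue) and 14 4-HT (red) samples. Ephb3 moves from 7.16 to 23.2 CPM per kb, while Efnb1 moves from 54.7 to 30.1.

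The first question was how each member responded to recombination within a genotype. In PAC, BAC and BPAC the 3 EphB receptors rose and both ephrin-B ligands fell, while in AC only Ephb3 and Efnb1 passed. With 4-HT, 1 of the 9 members rose in AC (Ephb3) and 1 fell (Efnb1), at an adjusted p below 0.01 from edgeR's quasi-likelihood test over all genes; of all genes, 3.00% rose and 4.25% fell. In PAC 4 members rose (Ephb2, Ephb3, Ephb4 and Efna4) and 3 fell (Epha1, Efnb1 and Efnb2), against 11.2% and 12.2% of all genes. BAC had 4 that rose (Epha2, Ephb2, Ephb3 and Ephb4) and 3 that fell (Epha1, Efnb1 and Efnb2), against 20.3% and 21.5%. BPAC had 3 that rose (Ephb2, Ephb3 and Ephb4) and 4 that fell (Epha1, Efna1, Efnb1 and Efnb2), against 22.0% and 23.0%. The median log2 fold change of the members in AC, PAC, BAC and BPAC was -0.07, 0.11, 0.39 and 0.04, beside a median over all genes between -0.04 and 0.01.

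The EtOH and 4-HT samples of a culture deviated together from their group means in PAC, BAC and BPAC (AC was not checked), and a fit with the culture as a block called 5, 8, 8 and 7 members in AC, PAC, BAC and BPAC. It also called more of all genes, with 16.4%, 34.9%, 51.9% and 54.4% for the 4 genotypes in the same order. With the counts of each donor summed, 2, 5, 7 and 7 members were called in AC, PAC, BAC and BPAC, and every member call gained with the block was absent. Without the pair of PAC libraries that stood apart, 2 members were called in PAC, Ephb3 and Efnb1, in place of 7. Leaving out only the culture of donor 1 or only that of donor 2 in duplicate 1 also gave 2 in PAC. In AC, leaving out either culture gave 0, and without both cultures of BAC donor 1 the PAC count was 4. The BAC count was 4 without BAC donor 1 or BAC donor 2, and the BPAC count was 4 without BPAC donor 1. Leaving out 1 of the 2 donors of a genotype lost the calls of Ephb4 in PAC, BAC and BPAC, of Epha1 in PAC, BAC and BPAC, of Ephb2, Efna4 and Efnb2 in PAC, of Epha2 in BAC and of Efna1 in BPAC for at least 1 donor each, with adjusted p of up to 0.16. Those of Ephb3 and Efnb1 in PAC, BAC and BPAC, and of Ephb2 and Efnb2 in BAC and BPAC, passed without either donor. In duplicate 1 alone 3, 7, 6 and 7 members passed in AC, PAC, BAC and BPAC, and in duplicate 2 alone 0, 0, 4 and 5. Within a duplicate AC has 1 sample per treatment, assumed to vary like the other groups, and the PAC 4-HT samples of duplicate 1 are the pair that stood apart. For donor sums, units left out, single duplicates and library size alone, the shares of all genes called are not given here. These member counts therefore cannot be set against changes in the whole fit. Without TMM scaling, on library size alone, the median of all genes shifted upwards to log2 values of 0.23, 0.20, 0.13 and 0.18 for AC, PAC, BAC and BPAC, and the members that rose and fell were 3 and 1 in AC, 5 and 1 in PAC, 4 and 2 in BAC, and 3 and 2 in BPAC.

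**Figure D2:**
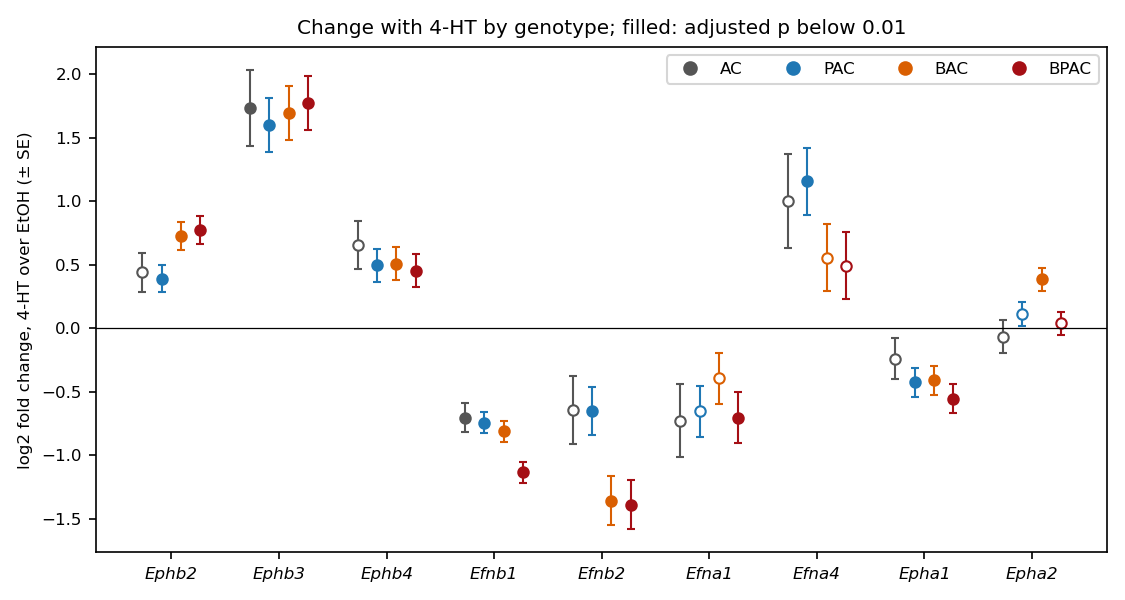
Log2 fold change of 4-HT over EtOH for the 9 members in each genotype from edgeR, with bars of 1 SE (n = 2 per treatment for AC, 4 for the others). Filled points passed an adjusted p below 0.01; Ephb3 is near 1.73 in all 4 genotypes, and Efnb2 is at -0.64, -0.65, -1.36 and -1.39 in AC, PAC, BAC and BPAC.

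Ephb3, a WNT-governed receptor of the crypt base, rose most of the 9 members in every genotype. Ephb3 in AC went from 46.6 and 58.8 CPM with EtOH to 196 and 154 CPM with 4-HT. Ephb3 in PAC went from 46.3, 47.5, 31.7 and 67.0 CPM with EtOH to 161, 130.3, 166 and 125 CPM with 4-HT. Ephb3 in BAC went from 43.7, 35.4, 48.7 and 54.9 CPM with EtOH to 163, 121, 168 and 141 CPM with 4-HT. In these genotypes each 4-HT sample lay above each EtOH sample. Ephb3 in BPAC went from 36.7, 48.7, 63.2 and 36.1 CPM with EtOH to 189.9, 109, 186 and 147 CPM with 4-HT. Across all genotypes the 14 samples with 4-HT (109 to 196 CPM) did not overlap with the 14 with EtOH (31.7 to 67.0 CPM), a separation shared by Efnb1 and Efnb2 among the 9 members and by 12.5% of all genes. The log2 fold change was 1.73 ± 0.30 (SE, adjusted p = 0.00061) in AC, 1.60 ± 0.21 (SE, adjusted p = 1.1e-05) in PAC, 1.70 ± 0.21 (SE, adjusted p = 4.2e-07) in BAC and 1.78 ± 0.21 (SE, adjusted p = 1.7e-07) in BPAC, or 3.03-fold to 3.42-fold. The AC call was lost without the culture of duplicate 1 (adjusted p = 0.096) or of duplicate 2 (adjusted p = 0.017), where 1 AC sample per treatment is left and is assumed to vary like the other groups. In PAC the change without the pair of libraries in question was 1.41 ± 0.25 (SE, adjusted p = 0.0012).

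Ephb2, the receptor that marks the lower crypt, went up less steeply. Ephb2 in AC went from 71.7 and 93.7 CPM with EtOH to 108 and 116 CPM with 4-HT. Ephb2 in PAC went from 75.0, 93.9, 72.6 and 65.2 CPM with EtOH to 95.2, 115, 102 and 90.4 CPM with 4-HT. These PAC groups overlapped by a margin of a few CPM, since the highest EtOH sample stood above the lowest 4-HT sample, but each culture increased. Ephb2 in BAC went from 87.2, 84.6, 79.8 and 84.3 CPM with EtOH to 135, 136, 144 and 139.8 CPM with 4-HT. Ephb2 in BPAC went from 63.3, 76.5, 90.9 and 78.1 CPM with EtOH to 134, 118, 138 and 138 CPM with 4-HT. In BAC and BPAC the treatments did not overlap. The log2 fold change was 0.44 ± 0.15 (SE, adjusted p = 0.050) in AC, which passed with the culture as a block (0.45 ± 0.11, adjusted p = 0.0063) but not on donor sums (0.41 ± 0.16, adjusted p = 0.11), and 0.39 ± 0.11 (SE, adjusted p = 0.0068) in PAC, 0.72 ± 0.11 (SE, adjusted p = 5.5e-06) in BAC and 0.77 ± 0.11 (SE, adjusted p = 1.8e-06) in BPAC. The PAC call was lost on donor sums (0.38 ± 0.11, adjusted p = 0.025), without the pair of PAC libraries (0.42 ± 0.14, adjusted p = 0.033) and without any of 5 of the 14 cultures, with adjusted p of up to 0.048. Those were the PAC cultures of duplicate 1 of donors 1 and 2 and of duplicate 2 of donor 2, and the BAC cultures of donor 1 duplicate 1 and donor 2 duplicate 2.

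Ephb4, best known as the receptor of ephrin-B2 in veins and also made by intestinal epithelium, was the most abundant of the EphB members per kb. Its ranges were 126 to 137 CPM with EtOH and 197 to 218 CPM with 4-HT in AC, and 113 to 143 CPM with EtOH and 154 to 197 CPM with 4-HT in PAC. In BAC they were 108 to 148 CPM with EtOH and 162 to 207 CPM with 4-HT, and in BPAC 112 to 163 CPM with EtOH and 147 to 226 CPM with 4-HT. Only the BPAC ranges overlapped, and 13 of the 14 cultures increased, the exception being BPAC donor 1 duplicate 2 (from 163 to 147 CPM). Ephb4 changed by 0.66 ± 0.19 (SE, adjusted p = 0.017) on the log2 scale in AC, which passed in the fit with the block (0.66 ± 0.17, adjusted p = 0.0094) but not on donor sums (0.63 ± 0.16, adjusted p = 0.026), by 0.50 ± 0.13 (SE, adjusted p = 0.0048) in PAC, 0.51 ± 0.13 (SE, adjusted p = 0.0021) in BAC and 0.45 ± 0.13 (SE, adjusted p = 0.0049) in BPAC. The PAC call was lost without the pair of libraries that stood apart (0.36 ± 0.16, adjusted p = 0.12) and without the PAC cultures of duplicate 1 of donor 1 (0.027), duplicate 1 of donor 2 (0.062) or duplicate 2 of donor 2 (0.011), the values being adjusted p. In BAC it was lost without donor 1 duplicate 1 (adjusted p = 0.017), and in BPAC without donor 1 duplicate 1 (0.083), donor 2 duplicate 1 (0.017) or donor 2 duplicate 2 (0.030).

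**Figure D3:**
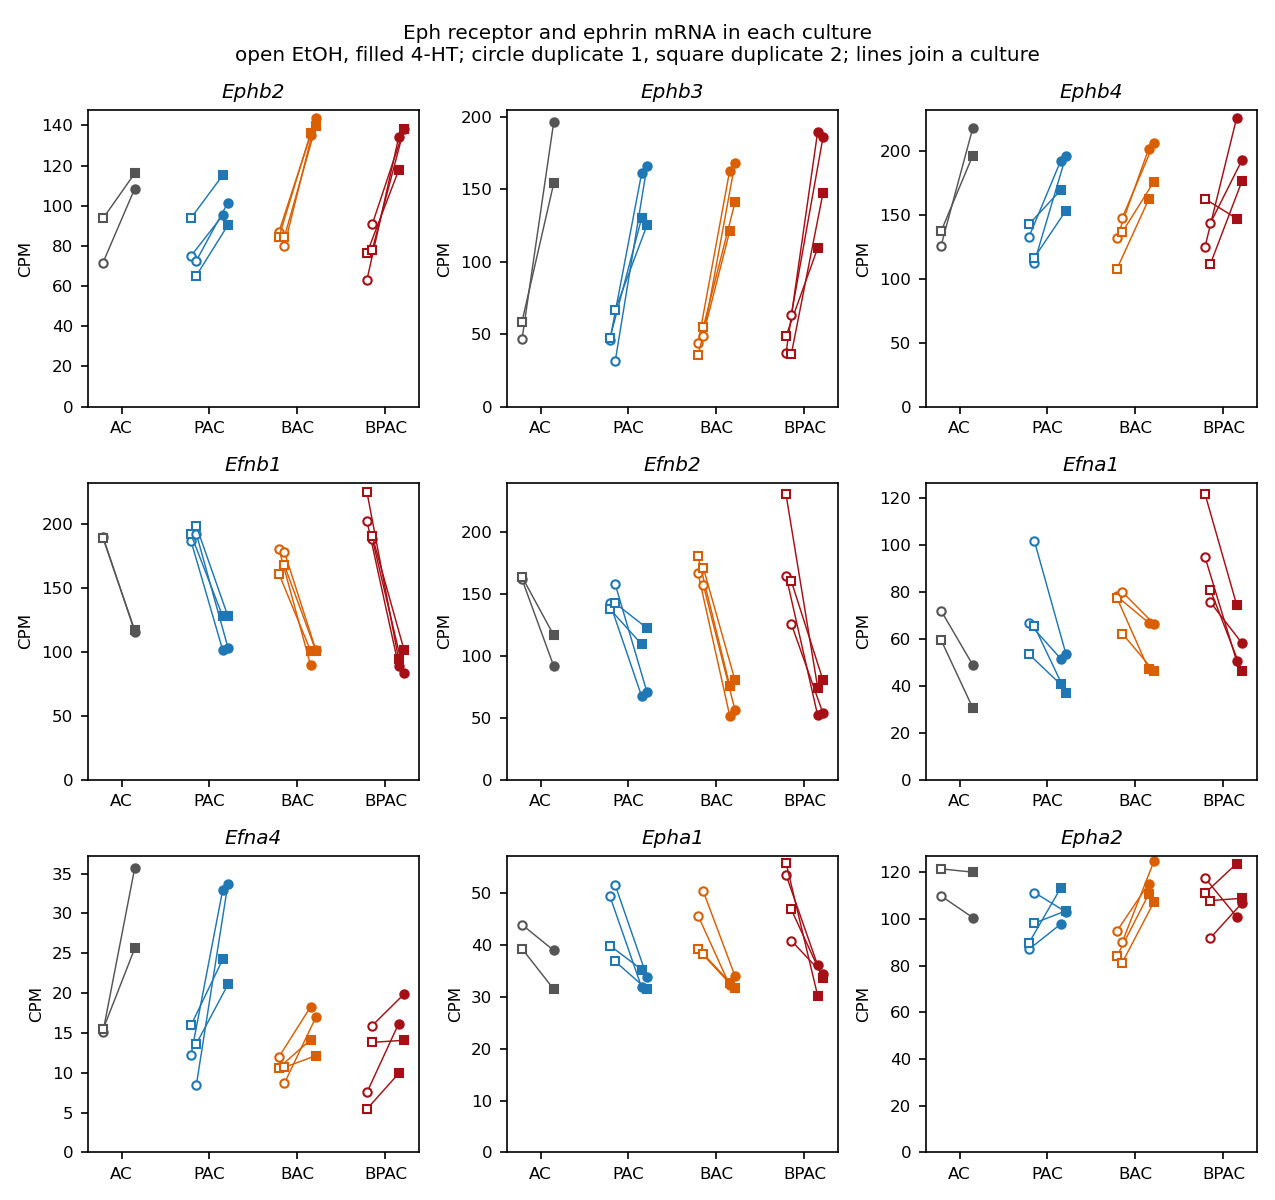
Expression in CPM of the 9 members in each of the 14 cultures, by genotype, with open symbols for EtOH, filled symbols for 4-HT, circles for duplicate 1, squares for duplicate 2 and lines joining a culture; each axis starts at 0. Ephb3 rises and Efnb1 and Efnb2 fall in every culture, whereas Epha2 lines cross, between 81.3 and 125 CPM.

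Efnb1, a transmembrane ligand encoded on the X chromosome, was at 161 to 225 CPM in all EtOH samples and 83.3 to 128 CPM in all 4-HT samples, without overlap. Efnb1 in AC went from 190.1 and 189 CPM with EtOH to 116 and 117 CPM with 4-HT. Efnb1 in PAC went from 187, 192, 193 and 199 CPM with EtOH to 101, 128, 103 and 128 CPM with 4-HT. The PAC samples of duplicate 1 ended lower (101 and 103 CPM) than those of duplicate 2 (both 128 CPM). Efnb1 in BAC went from 180.4, 161, 179 and 168 CPM with EtOH to 89.4, 101, 101 and 101 CPM with 4-HT. Efnb1 in BPAC went from 202, 225, 189 and 191 CPM with EtOH to 88.7, 94.1, 83.3 and 102 CPM with 4-HT. The log2 fold change was -0.70 ± 0.12 (SE, adjusted p = 0.00045) in AC, -0.74 ± 0.08 (SE, adjusted p = 1.5e-06) in PAC, -0.81 ± 0.08 (SE, adjusted p = 2.1e-08) in BAC and -1.13 ± 0.08 (SE, adjusted p = 1.3e-10) in BPAC. The AC call was lost without duplicate 1 (adjusted p = 0.052) or duplicate 2 (adjusted p = 0.035), and the PAC call remained without the pair of PAC libraries (-0.59 ± 0.09, adjusted p = 0.00045).

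Efnb2, the second transmembrane ligand of the upper crypt, fell most of all members in BAC and BPAC. Efnb2 in AC went from 162 and 164 CPM with EtOH to 91.8 and 117 CPM with 4-HT. Efnb2 in PAC went from 142, 138, 158 and 142 CPM with EtOH to 67.2, 109, 70.6 and 122 CPM with 4-HT. With 4-HT the PAC samples split by duplicate, the pair at 67.2 and 70.6 CPM being the libraries that stood apart. Efnb2 in BAC went from 167, 180.4, 157 and 171 CPM with EtOH to 51.7, 76.0, 56.2 and 80.3 CPM with 4-HT. Efnb2 in BPAC went from 165, 231, 126 and 160.4 CPM with EtOH to 51.8, 74.4, 53.6 and 80.4 CPM with 4-HT. Within each of the 4 genotypes EtOH and 4-HT samples did not overlap, and duplicate 1 was lower than duplicate 2 in the 4-HT samples of every donor. Efnb2 changed by -0.64 ± 0.27 (SE, adjusted p = 0.10) on the log2 scale in AC, which did not pass, and by -0.65 ± 0.19 (SE, adjusted p = 0.0097) in PAC, -1.36 ± 0.19 (SE, adjusted p = 2.7e-06) in BAC and -1.39 ± 0.19 (SE, adjusted p = 1.6e-06) in BPAC. The PAC call sat at the threshold and was lost without 11 of the 14 cultures in turn, with adjusted p of up to 0.098, and without the pair of PAC libraries the change was -0.32 ± 0.20 (SE, adjusted p = 0.28).

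Efna1, a lipid-anchored ligand of EphA2, was lower with 4-HT in 14 of 14 cultures. Its ranges were 59.5 to 72.0 CPM with EtOH and 30.6 to 48.9 CPM with 4-HT in AC, and 53.4 to 102 CPM with EtOH and 36.9 to 53.5 CPM with 4-HT in PAC. In BAC they were 62.2 to 79.9 CPM with EtOH and 46.2 to 66.8 CPM with 4-HT, and in BPAC 75.6 to 122 CPM with EtOH and 46.2 to 74.5 CPM with 4-HT. Treatments overlapped in PAC and BAC but not in AC and BPAC. The log2 fold change was -0.73 ± 0.29 (SE, adjusted p = 0.081) in AC, -0.65 ± 0.20 (SE, adjusted p = 0.013) in PAC, -0.39 ± 0.20 (SE, adjusted p = 0.10) in BAC and -0.70 ± 0.20 (SE, adjusted p = 0.0044) in BPAC, of which only the last passed. With the culture as a block Efna1 passed in AC (-0.76 ± 0.16, adjusted p = 0.0024), PAC (-0.63 ± 0.11, adjusted p = 0.00026) and BAC (-0.41 ± 0.11, adjusted p = 0.0043) too. On donor sums it did not pass in these 3 genotypes (adjusted p of 0.060, 0.014 and 0.13). On library size alone the BPAC change was -0.48 ± 0.20 (SE, adjusted p = 0.038), and it was lost without BPAC donor 1 duplicate 1 (adjusted p = 0.031) or donor 2 duplicate 2 (adjusted p = 0.018).

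Efna4, another lipid-anchored ligand, was higher with 4-HT in 14 of 14 cultures. Efna4 in AC went from 15.2 and 15.4 CPM with EtOH to 35.7 and 25.6 CPM with 4-HT. Efna4 in PAC went from 12.2, 16.0, 8.42 and 13.6 CPM with EtOH to 32.9, 24.2, 33.7 and 21.1 CPM with 4-HT. Efna4 in BAC went from 11.996, 10.6, 8.65 and 10.7 CPM with EtOH to 18.3, 14.2, 17.0 and 12.1 CPM with 4-HT. In AC, PAC and BAC the treatments did not overlap. Efna4 in BPAC went from 7.55, 5.45, 15.9 and 13.8 CPM with EtOH to 16.2, 9.91, 19.9 and 14.1 CPM with 4-HT. The log2 fold change was 1.00 ± 0.37 (SE, adjusted p = 0.063) in AC, 1.16 ± 0.26 (SE, adjusted p = 0.0014) in PAC, 0.56 ± 0.26 (SE, adjusted p = 0.078) in BAC and 0.49 ± 0.26 (SE, adjusted p = 0.12) in BPAC. Only the PAC change passed, and it did not on donor sums (1.18 ± 0.31, adjusted p = 0.016), without the pair of PAC libraries (0.85 ± 0.31, adjusted p = 0.056) or without the donor 1 (adjusted p = 0.017) or donor 2 (adjusted p = 0.029) member of that pair's cultures.

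Epha1, an EphA receptor of epithelia, was lower with 4-HT in 14 of 14 cultures. Its ranges were 39.3 to 43.9 CPM with EtOH and 31.5 to 39.0 CPM with 4-HT in AC, and 36.8 to 51.5 CPM with EtOH and 31.5 to 35.3 CPM with 4-HT in PAC. In BAC they were 38.3 to 50.4 CPM with EtOH and 31.8 to 34.1 CPM with 4-HT, and in BPAC 40.9 to 55.9 CPM with EtOH and 30.2 to 36.1 CPM with 4-HT. Within no genotype did the treatments overlap. Epha1 changed by -0.24 ± 0.16 (SE, adjusted p = 0.33) on the log2 scale in AC, which did not pass, by -0.42 ± 0.11 (SE, adjusted p = 0.0052) in PAC, -0.41 ± 0.11 (SE, adjusted p = 0.0039) in BAC and -0.55 ± 0.11 (SE, adjusted p = 0.00021) in BPAC. On library size alone none of these passed (-0.20, -0.24 and -0.34, adjusted p of 0.15, 0.068 and 0.013), and the AC estimate was -0.018 ± 0.16 (SE, adjusted p = 0.95). The tally over cultures uses TMM-scaled CPM. The PAC call was also lost without the pair of PAC libraries (-0.41 ± 0.15, adjusted p = 0.050) and without either of its cultures of duplicate 1 (adjusted p = 0.057 for donor 1 and 0.049 for donor 2), and the BAC call without either BAC culture of duplicate 1 (adjusted p = 0.027 for donor 1 and 0.030 for donor 2).

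Epha2, the ERK-linked receptor, passed in BAC alone. Epha2 in AC went from 109.8 and 121 CPM with EtOH to 101 and 120.0 CPM with 4-HT. Epha2 in PAC went from 87.0, 89.7, 111 and 98.2 CPM with EtOH to 97.8, 113, 103 and 103 CPM with 4-HT. In AC both cultures and in PAC 1 of 4 cultures were lower with 4-HT. Epha2 in BAC went from 94.8, 84.0, 90.1 and 81.3 CPM with EtOH to 115, 111, 125 and 107 CPM with 4-HT. Epha2 in BPAC went from 118, 111, 91.7 and 108 CPM with EtOH to 101, 124, 107 and 109 CPM with 4-HT. The BAC treatments did not overlap and 4 of 4 cultures increased, whereas the BPAC treatments overlapped. The log2 fold change was -0.07 ± 0.13 (SE, adjusted p = 0.78) in AC, 0.11 ± 0.09 (SE, adjusted p = 0.36) in PAC, 0.39 ± 0.09 (SE, adjusted p = 0.0011) in BAC and 0.04 ± 0.09 (SE, adjusted p = 0.73) in BPAC. The BAC call was lost without BAC donor 1 (adjusted p = 0.021) or donor 2 (adjusted p = 0.062), and in duplicate 1 (0.39 ± 0.12, adjusted p = 0.021) or duplicate 2 (0.40 ± 0.11, adjusted p = 0.015) alone. Whether BAC differed from BPAC alone was not tested. On library size alone the AC value turned positive (0.15 ± 0.12, adjusted p = 0.38) and the PAC change passed (0.34 ± 0.09, adjusted p = 0.0027). In that setting the BAC change was 0.55 ± 0.09 (SE, adjusted p = 7.4e-06). The BPAC change was 0.26 ± 0.09 (SE, adjusted p = 0.012), just short of the threshold.

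The ratio of receptor to ligand combines these changes. For each sample the sum of Ephb2 and Ephb3 in CPM per kb was divided by the sum of Efnb1 and Efnb2. With EtOH the log2 ratio lay between -2.97 and -2.13 in all 14 cultures. With 4-HT it lay between -1.08 and 0.28, without overlap. In 3 samples Ephb2 and Ephb3 together exceeded Efnb1 and Efnb2 per kb, BAC donor 1 and BPAC donors 1 and 2, each of duplicate 1. Ephb4, with the highest mean level per kb of the members with 4-HT, is not in this ratio. The change per culture averaged 1.98 ± 0.50 in AC (SD, n = 2 cultures), 1.91 ± 0.63 in PAC, 2.27 ± 0.28 in BAC and 2.60 ± 0.41 in BPAC (n = 4 each). The duplicates differed, since the 4-HT ratio was higher in duplicate 1 than in duplicate 2 of every donor. In PAC the ratio changed by 2.24 and 2.62 in duplicate 1, which holds the libraries that stood apart, and by 1.49 and 1.28 in duplicate 2. These ratios compare mRNA only and were given no test.

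**Figure D4:**
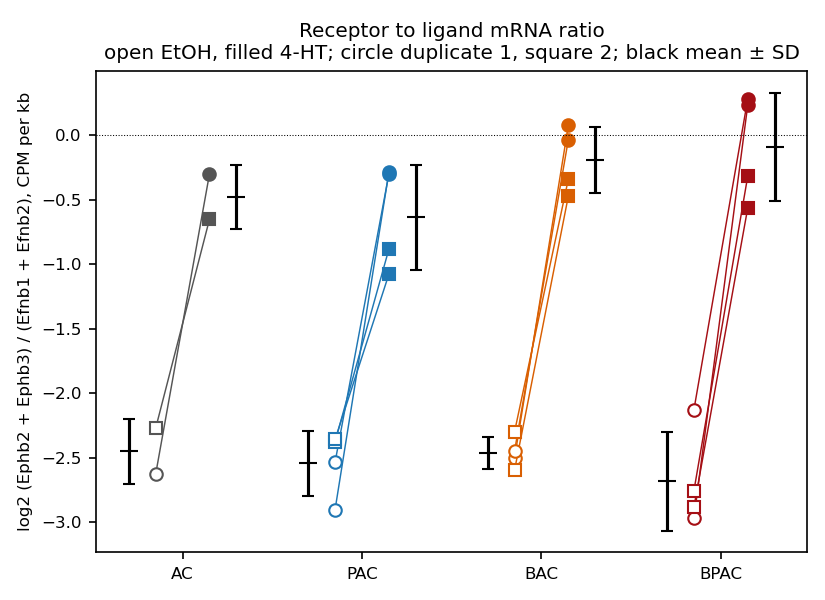
Log2 ratio of summed Ephb2 and Ephb3 to summed Efnb1 and Efnb2 (CPM per kb) in each culture, open for EtOH and filled for 4-HT, circles for duplicate 1 and squares for duplicate 2, with the mean and SD of each group in black. All EtOH samples lie at or below -2.13 and all 4-HT samples at or above -1.08.

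The next question was whether the Braf allele altered these responses. The mean change in BAC and BPAC minus that in AC and PAC passed the threshold for 0 of the 9 members with edgeR, with limma-voom and with DESeq2, while 3 members had an unadjusted p below 0.05 in each, and 6.61% of all genes passed with edgeR. Those 3 were Ephb2 (0.33 ± 0.12, adjusted p = 0.066), Efnb1 (-0.25 ± 0.09, adjusted p = 0.069) and Efnb2 (-0.73 ± 0.21, adjusted p = 0.023) in the edgeR fit. With the culture as a block Efnb2 passed, at -0.70 ± 0.17 (SE, adjusted p = 0.0059), and 7.48% of all genes passed in that direction, and Ephb2 came to 0.33 ± 0.09 (SE, adjusted p = 0.012). Efnb2 also passed without the pair of PAC libraries (-0.89 ± 0.19, adjusted p = 0.0035), but not on donor sums (-0.72 ± 0.15, adjusted p = 0.015). Within duplicate 1 the Efnb2 difference was -0.55 ± 0.12 (SE, adjusted p = 0.016) and within duplicate 2 -0.87 ± 0.17 (SE, adjusted p = 0.038). For Ephb3 the estimate was 0.07 ± 0.23 (SE, adjusted p = 0.88) and for Ephb4 -0.10 ± 0.15 (SE, adjusted p = 0.72). The sign of the Ephb3 estimate depended on the duplicate, with -0.19 in duplicate 1 and 0.29 in duplicate 2.

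Compared directly, the 4-HT samples with the Braf allele had more Ephb2 and less Efna4, Efnb1 and Efnb2. Of the 9 members 1 was higher and 3 were lower, against 15.6% and 14.6% of all genes. Donors were not shared between the genotypes, so a culture block could not be fitted here. With donor sums as the units Ephb2 (0.38 ± 0.09, adjusted p = 0.0077), Efnb1 (-0.27 ± 0.06, adjusted p = 0.0043) and Efnb2 (-0.58 ± 0.10, adjusted p = 0.0020) passed and Efna4 did not (-0.91 ± 0.24, adjusted p = 0.013). Within duplicate 2 only Efnb2 passed. Without the pair of PAC libraries all 4 passed, Ephb2 at 0.33 ± 0.10 (SE, adjusted p = 0.0094), Efna4 at -0.79 ± 0.22 (SE, adjusted p = 0.0056) and Efnb1 at -0.36 ± 0.06 (SE, adjusted p = 7.9e-05).

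Ephb2 was at 118 to 144 CPM (median 137) in the 8 samples of BAC and BPAC and at 90.4 to 116 CPM (median 105) in the 6 of AC and PAC. The groups did not overlap. The difference was 0.35 ± 0.09 (SE, adjusted p = 0.0022) on the log2 scale, and 0.41 ± 0.11 (SE, adjusted p = 0.013) in duplicate 1 and 0.28 ± 0.14 (SE, adjusted p = 0.15) in duplicate 2. It was lost without AC duplicate 1 (adjusted p = 0.016) or BAC donor 2 (adjusted p = 0.016). Efna4 was at 9.91 to 19.9 CPM with the allele and 21.1 to 35.7 CPM without it. It too did not overlap, and these were the 2 of 9 members without overlap, beside 21.1% of all genes. Before recombination, with EtOH, the Efna4 level was also estimated lower with the allele (-0.39 ± 0.21, SE, adjusted p = 0.34). The Braf allele effect on the Efna4 change was -0.56 ± 0.29 (SE, adjusted p = 0.21), so neither passed. The Efna4 difference was -0.94 ± 0.20 (SE, adjusted p = 0.00056), with -0.95 ± 0.22 (SE, adjusted p = 0.0073) in duplicate 1 and -0.94 ± 0.26 (SE, adjusted p = 0.026) in duplicate 2, and was lost without AC duplicate 1 (adjusted p = 0.011).

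Efnb1 was at 83.3 to 102 CPM with the allele and 101 to 128 CPM without it, so the ranges touched. The difference was -0.29 ± 0.06 (SE, adjusted p = 0.00099), and -0.27 ± 0.06 (SE, adjusted p = 0.0053) in duplicate 1 and -0.30 ± 0.09 (SE, adjusted p = 0.028) in duplicate 2. Efnb2 was at 51.7 to 80.4 CPM with the allele and 67.2 to 122 CPM without it. Those ranges overlapped over both duplicates together but not within either. In duplicate 1 the samples with the allele were at 51.7 to 56.2 CPM and those without it at 67.2 to 91.8 CPM. In duplicate 2 they were at 74.4 to 80.4 CPM against 109 to 122 CPM. Ephb2, Efna4 and Efnb1 did not overlap within either duplicate as well, and the share of all genes that separate in this way is not given here. The Efnb2 difference was -0.58 ± 0.15 (SE, adjusted p = 0.0028), -0.75 ± 0.14 (SE, adjusted p = 0.00021) without the pair of PAC libraries, and was lost without AC duplicate 2 (adjusted p = 0.036), BAC donor 1 (adjusted p = 0.015) or BAC donor 2 (adjusted p = 0.010).

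**Figure D5:**
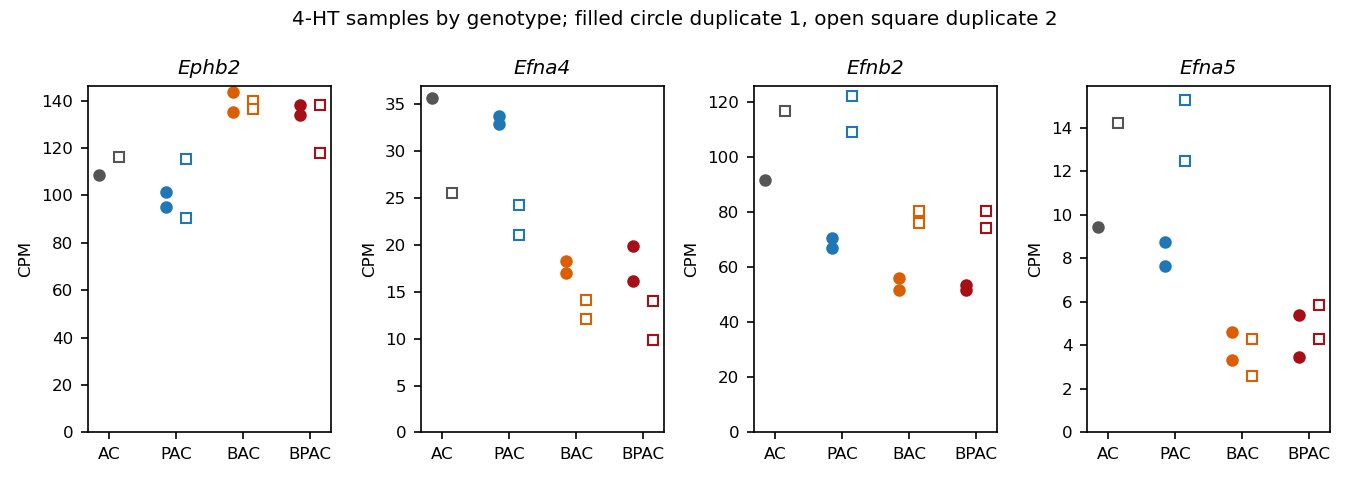
Expression in CPM of Ephb2, Efna4, Efnb2 and Efna5 in the 4-HT samples by genotype, with filled circles for duplicate 1 and open squares for duplicate 2; axes start at 0. Ephb2 lies at 117.7 to 144 CPM with the Braf allele (BAC, BPAC) and 90.4 to 116 CPM without it. Each gene shown separates by the Braf allele within each duplicate, Efnb2 only there.

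With EtOH, before recombination, 0 of the 9 members differed by the Braf allele with edgeR, limma-voom or DESeq2, and 0 had an unadjusted p below 0.05 with edgeR, while 0.0296% of all genes passed. The estimates ranged from -0.39 (Efna4) to 0.28 (Efna1). For the Trp53 allele, the 4-HT change in PAC and BPAC minus that in AC and BAC, 0 of the 9 members passed with any of the 3 tools and 0 had an unadjusted p below 0.05 with edgeR without a block, beside 0.0148% of all genes that passed. With the culture block 0 passed and 1 had an unadjusted p below 0.05, Efnb1 (-0.18 ± 0.09, adjusted p = 1.0). Without the block the estimates ranged from -0.18 to 0.05, and the widest SE was 0.29, for Efna4. The Trp53 gene itself was lower with EtOH in PAC (51.9 to 66.0 CPM) and BPAC (51.4 to 60.1 CPM) than in AC (108 to 115 CPM) and BAC (97.9 to 122 CPM). The compared genotypes therefore did not start from the same Trp53 level.

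Other genes of the family were scarce. Of the 13 listed, 6 were counted, and their levels with 4-HT were 3.05 ± 0.628 CPM per kb for Epha4 (SD, n = 14), 1.80 ± 1.04 for Efna5, 1.43 ± 0.534 for Efna3, 0.688 ± 0.346 for Ephb6, 0.0976 ± 0.0972 for Epha7 and 0.0610 ± 0.0661 for Epha3. Efna5, a lipid-anchored ligand, passed in BAC (-0.96 ± 0.26, adjusted p = 0.0027) and BPAC (-0.95 ± 0.25, adjusted p = 0.0024). It fell in 14 of 14 cultures, with smaller changes in AC (-0.07 ± 0.35, adjusted p = 0.93) and PAC (-0.28 ± 0.25, adjusted p = 0.39). With 4-HT it was at 2.61 to 5.87 CPM in the samples with the Braf allele and 7.66 to 15.3 CPM in those without, a difference of -1.44 ± 0.19 (SE, adjusted p = 3.2e-06). Its EtOH level was already lower with the allele, at a median of 7.99 against 13.3 CPM, by -0.65 ± 0.19 (SE, adjusted p = 0.12) with an unadjusted p of 0.0025. The Braf allele effect on its change passed with the culture as a block (-0.78 ± 0.15, adjusted p = 0.0017) but not without (-0.79 ± 0.28, adjusted p = 0.058) or on donor sums (-0.73 ± 0.27, adjusted p = 0.096). Both Efna5 calls within a genotype were lost when single cultures of that genotype were left out (without 2 of the 14 cultures for BAC and 3 for BPAC, adjusted p of up to 0.026 and 0.018).

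Epha7, an EphA receptor, fell in BAC (-1.96 ± 0.52, adjusted p = 0.0028) and had a lower 4-HT level with the Braf allele (-2.85 ± 0.36, adjusted p = 1.7e-06), at 0.0236 to 0.652 CPM against 0.966 to 3.31 CPM, where the EtOH level differed by -0.76 ± 0.35 (SE, adjusted p = 0.27). The lowest of these samples, BAC donor 1 duplicate 1, rests on 1 read. Its change also differed with the Braf allele (-2.09 ± 0.52, adjusted p = 0.0077), a call lost without 11 of the 14 cultures in turn and on donor sums (-2.11 ± 0.47, adjusted p = 0.018). The BAC call was lost without donor 1 duplicate 1 or donor 2 duplicate 1 (adjusted p = 0.025 in both cases). Epha3 fell in BPAC (-2.84 ± 0.65, adjusted p = 0.00065), where the 4-HT samples held 2 to 7 reads, and was lost without BPAC donor 2 duplicate 2 (adjusted p = 0.016). Its 4-HT level differed with the Braf allele by -2.36 ± 0.49 (SE, adjusted p = 0.00043) and its EtOH level by -0.88 ± 0.45 (SE, adjusted p = 0.32). Efna3, the neighbour of Efna1 and Efna4, rose in PAC (1.29 ± 0.27, adjusted p = 0.00074, and 1.37 ± 0.33, adjusted p = 0.0076 without the pair of PAC libraries) and, with the block, in BPAC (0.83 ± 0.26, adjusted p = 0.0095). On library size alone Efna3 passed in all 4 genotypes (adjusted p of 0.0034, 0.00011, 0.0061 and 0.0023 for AC, PAC, BAC and BPAC). Epha4 and Ephb6 passed in no genotype in the edgeR fit without the block. Ephb6 passed in PAC and BAC with limma-voom (adjusted p of 0.0063 and 0.0083), DESeq2 (0.0056 and 0.0028) and on library size alone (0.0077 and 0.0066), Epha4 in PAC on library size alone (0.0019), and both in PAC in duplicate 1 alone, but neither without the pair of PAC libraries. With the block Epha4 rose in AC (0.77 ± 0.16, adjusted p = 0.0025), PAC (0.59 ± 0.12, adjusted p = 0.00059) and BPAC (0.38 ± 0.12, adjusted p = 0.0083), and Ephb6 in PAC (2.16 ± 0.51, adjusted p = 0.0025), BAC (1.98 ± 0.49, adjusted p = 0.0023) and, at the edge of the threshold, BPAC (1.39 ± 0.44, adjusted p = 0.00999). None of the Efna3, Epha4 and Ephb6 calls gained with the block passed on donor sums, and the Efna3 call in PAC, both Efna5 calls, the Epha7 call in BAC and the Epha3 call in BPAC were each lost without at least 1 donor of that genotype.

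Of 36 genes that pass on or end Eph and ephrin signals, 35 were counted. In AC 0 passed with edgeR (12 had an unadjusted p below 0.05, and 0 and 1 passed with limma-voom and DESeq2). In PAC 2 rose and 3 fell, in BAC 4 rose and 6 fell, and in BPAC 3 rose and 7 fell. As shares of 35, these counts lie below the shares of all genes given above for the members. Partners had a median log2 fold change of -0.14 in BPAC against -0.04 over all genes. With the culture block 3, 8, 11 and 15 passed in AC, PAC, BAC and BPAC, and without the pair of PAC libraries 1 passed in PAC. Largest in BPAC were the rise of Fyn, a Src-family kinase (1.39 ± 0.43, SE, adjusted p = 0.0082), and the fall of Kalrn, which acts below EphB receptors in neurons (-1.15 ± 0.15, SE, adjusted p = 3.9e-07). For the Braf allele effect on the change 1 of 35 passed, beside 6.61% of all genes, namely Vav3, an exchange factor of the Vav family (-0.74 ± 0.17, SE, adjusted p = 0.0055).

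Reference lists moved as follows beside the members. Of all genes, 3.00%, 11.2%, 20.3% and 22.0% rose and 4.25%, 12.2%, 21.5% and 23.0% fell in AC, PAC, BAC and BPAC. Of 5 WNT output genes (Axin2, Lgr5, Ascl2, Nkd1 and Sox9), 4 rose in AC and 5 in each of PAC, BAC and BPAC, and 0 differed by the Braf allele in change with edgeR, where 0 had an unadjusted p below 0.05. Their median log2 fold change was 1.70 in AC and 1.91 in BPAC. Of 5 ERK output genes (Dusp6, Spry4, Etv4, Etv5 and Fosl1), 0 rose in AC (3 had an unadjusted p below 0.05, and 0 and 2 rose with limma-voom and DESeq2), 2 rose in PAC and 5 in either Braf genotype. With the Braf allele 4 had a larger change, where 6.61% of all genes passed in either direction. Of 6 genes of differentiated colonocytes (Vil1, also on the epithelial list, included), 2, 4, 5 and 6 fell in AC, PAC, BAC and BPAC. Of the 9 colon epithelial markers, 2 fell in PAC, 5 in BAC, 5 in BPAC and 0 in AC (where 2 had an unadjusted p below 0.05, and 1 and 2 fell with limma-voom and DESeq2), with sums of 17780 to 28660 CPM with EtOH and 15987 to 21564 CPM with 4-HT. With the culture block 3 ERK output genes rose in AC, 4 colonocyte genes fell in AC and 6 in PAC, and 2 epithelial markers fell in AC and 4 in PAC. Without the pair of PAC libraries, 1 gene of each of these 3 lists and 4 of the 5 WNT output genes passed in PAC. In bulk RNA fewer cells of a type and less RNA per cell cannot be told apart, and the part of these shifts in the member changes was not tested.

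The genes whose log2 CPM followed each member most closely over the 28 samples were found among 10153 genes with a mean of at least 5 CPM. Pearson's r is given as a description, since all points share the 4-HT contrast. For Ephb3 they were Slc41a1 (r = 0.979) and Sox9 (r = 0.978), Sox9 being a WNT-responsive transcription factor of the crypt base. For Ephb2 they were Slc7a5 (r = 0.949) and Pomgnt1 (r = 0.949), and for Ephb4 Rbm15b (r = 0.930) and Fance (r = 0.919). Efnb1 was followed by Myo1a (r = 0.986), a brush border myosin. Efnb2 was followed by Tep1 (r = 0.978) and Tfcp2l1 (r = 0.976), Efna1 by Dusp1 (r = 0.940) and 2610528A11Rik (r = 0.934), and Efna4 by Sox4 (r = 0.932) and Tceal9 (r = 0.931). Epha1 was followed by Nucb1 (r = 0.927) and Zdhhc7 (r = 0.926). Epha2 had the loosest neighbours, Lpcat4 (r = 0.731) and Myo1c (r = 0.699).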

How the data were processed

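RNA-seq was done on 28 organoid samples. The authors deposited raw read counts per gene, made per the study's methods and the submitters' processing notes with Trimmomatic 0.39 and STAR 2.5.2b on GRCm38. The counting program, its strand setting and annotation are not given in the sources used here. Every gene kept exceeds 1 CPM in at least 2 samples. 1 label of a BAC 4-HT sample (donor 2) lacks a duplicate number and was taken as duplicate 1.

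Counts were fitted for all 13519 genes with edgeR 4.0.16 (R 4.3.3), using TMM factors, 8 groups of genotype and treatment and the quasi-likelihood test, with Benjamini-Hochberg adjustment over all genes and a threshold of 0.01. SE is the log2 fold change over the square root of F. Limma 3.58.1 (voom), DESeq2 1.42.0, other scalings, filters, thinning to the smallest total, donor sums, each duplicate, a block for culture, and leaving out cultures, donors or the pair of PAC libraries were alternatives. Summing that pair was added after seeing the data. The EtOH and 4-HT samples of a culture share donor and duplicate number in the labels, and their deviations from the group means correlated in each of the 12 cultures of PAC, BAC and BPAC (AC, with 2 cultures, was not checked; mean r = 0.416, lowest 0.245, against a mean of -0.059 with the other culture of the donor). CPM per kb used merged exon lengths of GENCODE M21. The scripts were checked on simulated counts.

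All 9 members and the other counted Eph and ephrin genes are named. Signalling partners were named where they had the largest rise or fall past the threshold in BPAC or for the Braf allele effect on the change, and the 2 genes with the highest r are named as nearest to each member (1 of those of Efnb1 is not reported here). The members and lists were chosen with earlier results of these data known.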

Additional observations from a re-analysis of the deposited data

Results flagged for a closer look

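Among 81 sets of 4 values (member levels per genotype and treatment, and changes per culture), 2 held a value far from the other 3 by Dixon's test at the 95% level, where chance gives about 1 in 20. Efna1 was at 62.2 CPM in the BAC EtOH sample of donor 2, duplicate 2, against 77.4 to 79.9 CPM in the other 3. Efnb1 was at 89.4 CPM in the BAC 4-HT sample of donor 1, duplicate 1, against 100.6 to 101 CPM in the other 3.

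For 3 genes of the family the 4-HT change differed by the Braf allele in at least 1 of the fits (edgeR, adjusted p over all genes). Efnb2 differed by -0.70 (adjusted p = 0.0059) with the culture as a block. Efna5 differed by -0.78 (adjusted p = 0.0017) in that fit. Epha7 differed by -2.09 (adjusted p = 0.0077) without the block and by -2.15 (adjusted p = 0.0020) with it, on low counts. With the counts of each donor summed none of the 3 passed (adjusted p = 0.015, 0.096 and 0.018 for Efnb2, Efna5 and Epha7). All of these values are on the log2 scale.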

How the results depend on the processing

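Counts of members that passed depended on the setting as follows. In AC, against 2, the count was 0 in duplicate 2 alone, 1 with the genotype fitted alone, 4 on library size alone, 5 with the culture as a replicate block and 4 at a threshold of 0.05, and it ranged from 0 to 3 when cultures or donors were left out. In PAC, against 7, it was 0 in duplicate 2 alone, 3 with the genotype fitted alone, 2 without the 4-HT libraries of duplicate 1, 3 with these libraries summed, a setting chosen after seeing the data, and 2 to 8 when cultures or donors were left out. In BAC, against 7, it was 4 in duplicate 2 alone and ranged from 4 to 7 with units left out, as it did in BPAC. For the Braf allele effect on the change, against 0, it was 1 with the culture block, 1 without the pair of PAC libraries and 1 at a threshold of 0.05. For the Braf allele effect on the 4-HT level, against 4, it was 1 in duplicate 2 alone and 2 to 4 with units left out. With Ephb4 added to the receptors, the log2 ratio of receptor to ligand changed by 1.79 in BAC and 2.01 in BPAC, with AC and PAC not given here. The fit with the culture block changed no call of a member or other Eph or ephrin gene beside those given above, and the level comparisons allow no such block.

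These estimates near 0 changed sign. None of them passed in the edgeR fit without the block, but Epha2 in PAC passed on library size alone. Epha2 in AC was 0.15 on library size alone. Epha2 in BPAC was -0.022 in duplicate 1 alone, and the Epha2 level difference by the Braf allele -0.019 in duplicate 2 alone. The Braf allele effect on the Ephb3 change was -0.19 in duplicate 1 alone. Without the pair of PAC libraries the level difference was 0.034 for Ephb3 and 0.025 for Ephb4, and the latter was 0.0077 in duplicate 1 alone. With units left out, Epha2 ranged from -0.023 to 0.26 in PAC and from -0.025 to 0.13 in BPAC, the Ephb3 effect on the change from -0.10 to 0.24 and the Ephb4 effect from -0.17 to 0.0026. The level difference ranged from -0.12 to 0.037 for Epha1, from -0.14 to 0.031 for Ephb3 and from -0.099 to 0.0037 for Ephb4. The cause was not tested. Of 1080 member values with a culture or donor left out, 996 kept direction and side of the threshold, and of 729 under the other alternatives 662 did. For the other Eph and ephrin genes 146 of 180 and 100 of 113 did, a tally over only their comparisons that passed, so that gained calls are not in it. The member tally and the sign changes above leave out the EtOH level and Trp53 comparisons, where signs changed as well. An example is the Ephb3 EtOH level difference by the Braf allele, -0.13 over all samples and 0.17 in duplicate 1 alone.

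Depth limited Epha3 and Epha7, which rest on fewer than 25 reads in each 4-HT sample with the Braf allele. With 1 donor AC had the widest errors, so a change that did not pass there is not shown to be absent.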
